A study of Mus musculus with 2 samples.

Results

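The genes described here encode proteins that produce, hold or release transforming growth factor beta (TGF-beta) at the surface of T cells. They are Tgfb1 (the ligand TGF-beta 1), Lrrc32 (GARP, which docks latent TGF-beta), Itgav and Itgb8 (the alpha V and beta 8 integrin chains), Itgae (the alpha E integrin chain, CD103) and Nrp1 (neuropilin 1). They were chosen by name, as the rows of the deposited matrices whose gene symbol is exactly one of these 6 out of 55487 genes, so that Tgfb1i1, a different gene, was left out. TGF-beta 1 is secreted in a latent form, folded inside its own propeptide. On regulatory T cells (Treg cells, the CD4 T cells that express the transcription factor Foxp3) GARP anchors this latent complex at the membrane, and the integrin alpha V beta 8 pulls on the propeptide and frees the active cytokine. CD103 pairs with the beta 7 chain and binds E-cadherin, and neuropilin 1 is a co-receptor for semaphorins and vascular endothelial growth factor that can also bind TGF-beta and is found on many Treg cells of mice.

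The cells were CD4 T cells of brown (BAT), subcutaneous (SAT) and visceral (VAT) adipose tissue and of the spleen. The donors were male wild-type mice of the C57BL/6J strain, 8 weeks of age, and no treatment is named for these libraries. The labels describe 2 droplet libraries, here experiments 1 and 2, each pooling 8 samples marked with hashtag antibodies, 2 per tissue. The 16 hashed samples are called replicates 1 and 2 (experiment 1) and 3 and 4 (experiment 2) of a tissue, n = 4 per tissue. Live cells with T cell receptor beta, CD3 and CD4 on their surface had been sorted, the fat after collagenase digestion and the spleen after mechanical dissociation alone, so that digestion and tissue cannot be told apart. The labels do not say whether the samples of 1 tissue came from separate animals, so p-values measure the spread between these samples. Among T cells, those with at least 1 Foxp3 UMI (unique molecular identifier, 1 per captured RNA molecule) are called Foxp3-positive and the others Foxp3-zero, and Foxp3-positive cells were split in the same way by Il1rl1, the gene of the interleukin 33 receptor ST2. There were 349 and 499 Foxp3-positive cells and 3381 and 7820 Foxp3-zero cells in experiments 1 and 2, of which 93 and 62 were Il1rl1-positive and 256 and 437 Il1rl1-zero.

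The 300 bases around the annotated starts of Itgav, Nrp1 and Itgb8 (250 before and 50 after, RefSeq on GRCm38.p6) are shown because Itgav and Nrp1 passed the main tests together in Foxp3-positive cells, and because Itgb8 encodes the partner chain of alpha V. Capitals mark matches on either strand to a GC box (GGGCGG) or to the short SMAD motif (CAGACA).
Itgav, chr2:83724147-83724446, plus strand: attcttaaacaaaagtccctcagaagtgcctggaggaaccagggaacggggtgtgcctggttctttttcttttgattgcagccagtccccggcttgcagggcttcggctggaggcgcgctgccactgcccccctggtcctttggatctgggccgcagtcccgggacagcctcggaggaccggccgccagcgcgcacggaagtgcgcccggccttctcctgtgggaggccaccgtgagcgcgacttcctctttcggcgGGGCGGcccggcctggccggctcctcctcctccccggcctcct
Nrp1, chr8:128358823-128359122, plus strand: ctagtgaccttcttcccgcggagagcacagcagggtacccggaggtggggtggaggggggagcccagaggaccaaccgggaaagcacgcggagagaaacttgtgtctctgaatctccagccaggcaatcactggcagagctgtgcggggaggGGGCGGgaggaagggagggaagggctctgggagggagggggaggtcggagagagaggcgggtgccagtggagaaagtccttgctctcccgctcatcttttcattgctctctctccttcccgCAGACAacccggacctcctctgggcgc
Itgb8, chr12:119238227-119238526, minus strand: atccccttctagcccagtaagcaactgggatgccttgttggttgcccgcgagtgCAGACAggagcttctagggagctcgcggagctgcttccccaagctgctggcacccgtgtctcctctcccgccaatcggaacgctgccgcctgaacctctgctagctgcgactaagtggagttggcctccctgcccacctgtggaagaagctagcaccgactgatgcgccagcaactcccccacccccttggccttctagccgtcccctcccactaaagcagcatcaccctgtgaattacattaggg
The RefSeq table held 4 of the 6 genes by symbol, the fourth being Tgfb1, whose window had 6 GC boxes and 77% G or C. Itgav and Nrp1 had 1 GC box each, and Nrp1 and Itgb8 had 1 CAGACA each. A forkhead motif (TGTTTAC) was in none of these windows. Of 32851 promoter windows of this length, 35.7% held GGGCGG, 21% CAGACA and 3.65% TGTTTAC, and their median G or C content was 52.67%, against 67.33% for Itgav, 64% for Nrp1 and 60.67% for Itgb8. On the build of the files (mm10, GENCODE vM21) the genes lie at chr2:83724397-83806916 (Itgav, plus strand), chr7:25687002-25705077 (Tgfb1, plus), chr7:98489283-98502181 (Lrrc32, plus), chr8:128358604-128503363 (Nrp1, plus), chr11:73090583-73147446 (Itgae, plus) and chr12:119158022-119238802 (Itgb8, minus), and all are annotated as protein-coding. The windows of Nrp1 and Itgb8 lie wholly inside these GENCODE genes, so for both the RefSeq start used is downstream of the GENCODE gene start.

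Before the results, 3 limits of the samples are given. The hashtags of SAT replicate 1 and BAT replicate 4 separated from background by 1.926 and 3.591 robust standard deviations, against 4.645 to 9.53 for the other 14, so results by tissue were repeated without both. The libraries shared 9 cell barcodes. Experiment 1 was the deeper library, with a median of 6107 UMIs per kept cell against 4306.5 in experiment 2. Foxp3-positive cells with a single hashtag numbered 12 to 70 per hashed sample (53918 to 386989 UMIs summed) and Foxp3-zero cells 178 to 902 (1103525 to 4634734 UMIs), with similar median UMIs per cell, 3644 to 6517 and 4221.5 to 6716. Levels are in CPM, the UMIs of a gene scaled to the same total of UMIs (1000000) in every sum of cells. In such sums fewer expressing cells and less RNA per cell cannot be told apart. Markers of the sorted cells were present: 5 genes of alpha-beta T cells summed to 2671 to 3841 CPM in Foxp3-positive and 3163 to 3896 CPM in Foxp3-zero sums, and Cd4 itself lay at 74.19 to 198.5 and 147.8 to 199.4 CPM.

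Foxp3-positive T cells carried more RNA of Nrp1 and Itgav than the Foxp3-zero T cells of the same hashed sample. Lrrc32, Itgb8 and Itgae were low in level and found in a larger share of Foxp3-positive than of Foxp3-zero cells, while the ligand Tgfb1 was common in both. Over both libraries Lrrc32 UMIs were in 99 Foxp3-positive and 89 Foxp3-zero cells, those of Itgae in 46 and 53, and those of Itgb8 in 52 and 26. By edgeR's quasi-likelihood test with the hashed sample as block, 2 of the 3 genes with enough UMIs to be tested passed an adjusted p of 0.05, both higher, beside 19.6% of all 6588 genes tested. Lrrc32, Itgb8 and Itgae did not reach the filter (a minimum count of 10) and were tested only under a weaker one.

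Nrp1 had 49.8, 120.8 and 185.5 CPM (lowest, median and highest of 16 hashed samples) in Foxp3-positive cells, against 4.738, 17.41 and 41.72 CPM in Foxp3-zero cells. Every Foxp3-positive sum lay above every Foxp3-zero sum. The log2 difference was 2.44 ± 0.21 (SE; adjusted p = 1.41e-11, edgeR), higher in 16 of 16 samples. Itgav had 0, 46.8 and 102 CPM in Foxp3-positive cells, against 10.66, 17.97 and 34.35 CPM in Foxp3-zero cells. The ranges overlapped, and Itgav was higher in the Foxp3-positive cells of 14 of 16 samples, the exceptions being BAT replicate 2, with no Itgav UMI in its 12 Foxp3-positive cells, and spleen replicate 4. Its log2 difference was 1.19 ± 0.16 (adjusted p = 1.58e-07, edgeR). Without the 2 weak hashtags the values were 2.5 for Nrp1 and 1.19 for Itgav, and both passed.

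Tgfb1 had 57.92, 124 and 212.8 CPM in Foxp3-positive cells, against 77.89, 92.7 and 171.4 CPM in Foxp3-zero cells. It was higher in the Foxp3-positive cells of 11 of 16 samples, with wide overlap. The log2 difference was 0.24 ± 0.10 with an adjusted p of 0.0838 (edgeR), so Tgfb1 did not pass. It did pass with sums per library (0.33 ± 0.07, adjusted p = 0.00013), with scaling by library size (0.37, adjusted p = 0.00601) and without the block (0.26, adjusted p = 0.0358). In fits that each left out 1 hashed sample its adjusted p was 0.0351 to 0.194 (edgeR), so it passed in some of them.

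The 3 sparse genes were nearly absent from Foxp3-zero sums. Lrrc32 had 0, 26.27 and 70.24 CPM in Foxp3-positive cells, against 0, 1.022 and 3.948 CPM in Foxp3-zero cells. Itgb8 had 0, 13.36 and 36.22 CPM, against 0, 0.3677 and 2.147 CPM, and Itgae 0, 16.2 and 48.33 CPM, against 0, 1.27 and 3.025 CPM, each given for Foxp3-positive and then Foxp3-zero cells. Foxp3-positive cells had UMIs of Lrrc32 in 14 samples, of Itgb8 in 12 and of Itgae in 13, and none in the remaining 2, 4 and 3. With the weaker filter (15655 genes) the log2 differences were 3.82 ± 0.28 for Lrrc32, 3.95 ± 0.39 for Itgb8 and 3.66 ± 0.32 for Itgae (adjusted p = 2.38e-18, 8.74e-13 and 8.73e-15, edgeR). In that fit Tgfb1 was at 0.11 ± 0.10 (adjusted p = 0.50).

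**Figure D1:**
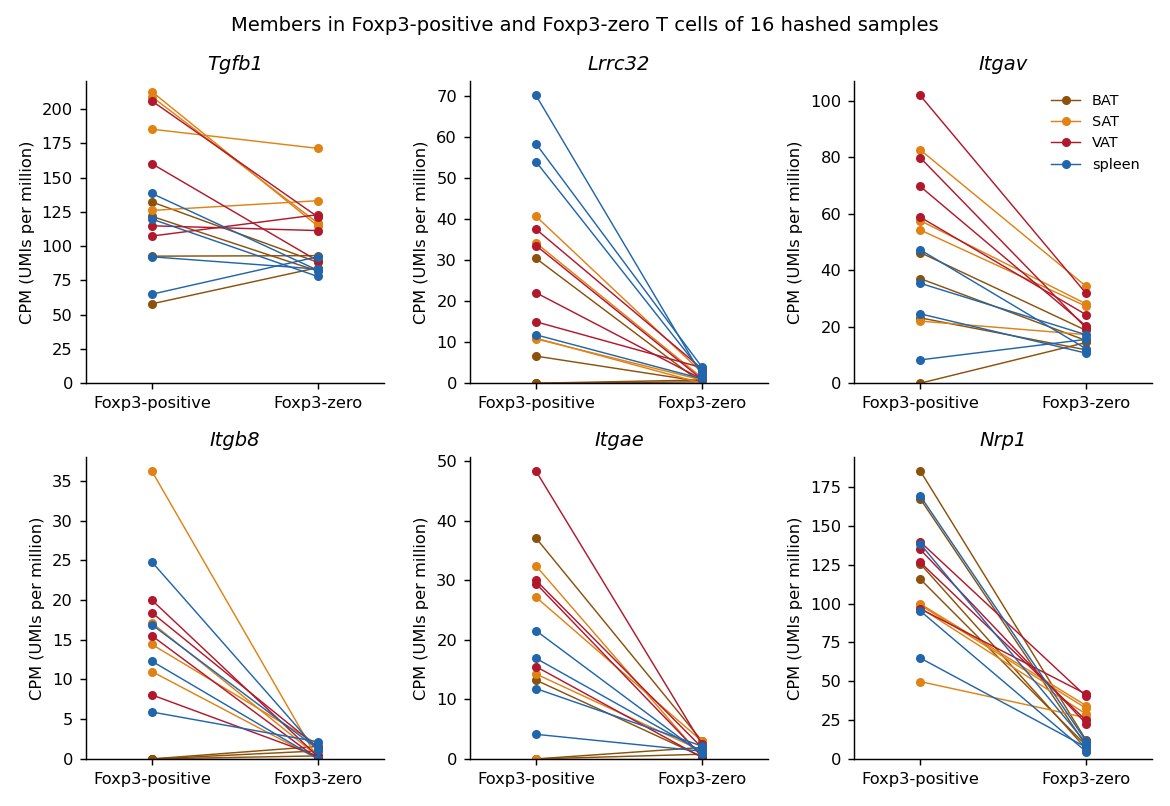
Level of each gene (vertical axis, CPM, linear) in Foxp3-positive and Foxp3-zero T cells; each line joins the sums of 1 hashed sample, coloured by tissue. Nrp1 shows no overlap between the classes, Lrrc32, Itgb8 and Itgae lie at or below 3.948 CPM in Foxp3-zero cells, and Tgfb1 overlaps widely.

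Shares of cells with a UMI were higher in Foxp3-positive cells for all 6 genes in both libraries. In experiment 1, 52.44% of Foxp3-positive cells had a Tgfb1 UMI (exact 95% interval 47.05 to 57.78) against 43.8% of Foxp3-zero cells, and 37.25% (32.16 to 42.56) against 10.2% had a Nrp1 UMI. Itgav was found in 26.93% against 13.13%, Lrrc32 in 14.61% (11.08 to 18.76) against 0.8873%, and Itgb8 and Itgae each in 6.59% (4.223 to 9.725) against 0.2366% and 0.5915%. In the shallower experiment 2 the shares of Foxp3-positive and Foxp3-zero cells were 41.28% and 31.36% for Tgfb1, 31.06% and 6.381% for Nrp1, 17.23% and 7.685% for Itgav, 9.619% and 0.7545% for Lrrc32, 5.812% and 0.2302% for Itgb8, and 4.609% and 0.422% for Itgae. After thinning to 1300 UMIs per cell, which left out 3 T cells of experiment 1 and 611 of experiment 2, the shares in Foxp3-positive and Foxp3-zero cells of experiment 1 were 17.48% and 12.85% for Tgfb1 and 2.006% and 0.2072% for Lrrc32. The intervals cover counting error only.

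Shares in clusters left out as other cell types are given beside these, though T cell RNA was found there too. Over both libraries the T cell receptor gene Trac was in 34.55% of the cells of a B cell cluster. It was in 70.55% of those of an erythroid cluster, so these clusters give no background free of T cells. A cluster of B cell genes (29 and 26 cells, median 5485 and 4658 UMIs) had Lrrc32 in 3.448% and 0% of cells, Itgb8 in 0% of both, Nrp1 in 10.34% and 0%, and Tgfb1 in 58.62% and 50% in experiments 1 and 2. The larger erythroid cluster of experiment 2 (573 cells, median 1477 UMIs) had Lrrc32 in 0.349% of cells, Itgb8 in 0%, Itgae in 1.047%, Nrp1 in 2.618% and Tgfb1 in 16.93%. Over the class as a whole, the Foxp3-zero shares of Lrrc32 and Itgae lie within the range of these clusters. This does not show that the shares are background, and the 3.448% for Lrrc32 was 1 of 29 cells. The Foxp3-zero share of Itgb8 (0.2366% and 0.2302%) is above the 0% of these clusters, though 0 of 573 cells still allows more. A left-out cluster of fibroblast and endothelial genes had Nrp1 in 61.81% and 33.33% of its cells and Lrrc32 in 16.67% and 12.5%, and a myeloid cluster had Nrp1 in 53.7% and 15.79%. B cell genes were higher in Foxp3-positive sums (243.7, 359.9 and 590.8 CPM, lowest, median and highest, for 6 genes) than in Foxp3-zero sums (117.9, 192.7 and 248.3 CPM), which was mostly Ighm (medians of 321.3 and 186.9 CPM). The medians of Cd79b were 17.33 CPM in Foxp3-positive and 1.93 CPM in Foxp3-zero sums and those of Igkc 13.5 and 1.883 CPM, while Ms4a1 was at 0 in 15 of 16 Foxp3-positive and 13 of 16 Foxp3-zero sums. The part of this in the results was not tested. Fibroblast genes summed to at most 19.85 and 9.629 CPM in the classes.

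The Foxp3-zero class also held cells that clustered with Treg-like cells. Clusters 11 and 14, led by Ctla4, Ikzf2 and Foxp3 and by Il2ra, Foxp3, Ikzf2 and Lrrc32, had all 4 Treg markers and held 316 Foxp3-zero cells beside 622 Foxp3-positive ones. Those 316 cells had 52.59 CPM of Lrrc32, 111.9 CPM of Nrp1 and 49.89 CPM of Itgav, against 0.6005, 17.74 and 19.32 CPM in the other 10885 Foxp3-zero cells. They carried 59 of the 89 Foxp3-zero cells with an Lrrc32 UMI. Conversely, the 226 Foxp3-positive cells outside these clusters had 4.767 CPM of Lrrc32, 0.5959 CPM of Itgae and 43.5 CPM of Nrp1, against 35.34, 23.3 and 117.3 CPM in the 622 inside. The levels of Lrrc32 and Itgae followed the cluster more closely than the presence of a Foxp3 UMI. The clusters were built on variable genes of these same cells, and Lrrc32 and Foxp3 were among the leading genes of cluster 14. The part of these genes in forming the clusters was not tested, so the values are a description.

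The genes differed between the 2 Treg-like clusters. Cluster 11, which also had Il1rl1, Areg and Klrg1 among its leading genes, had more Itgav (75.8 against 25.11 CPM in cluster 14), Itgb8 (21.66 against 10.14), Itgae (31.25 against 7.727) and Tgfb1 (166.1 against 108.2). Cluster 14 had the higher Lrrc32, with 68.58 CPM against 21.97 CPM in cluster 11. Nrp1 was similar at 123.1 and 104.3 CPM in clusters 11 and 14. Both Foxp3 classes showed this: Lrrc32 was at 20.57 CPM in Foxp3-positive and 28.02 CPM in Foxp3-zero cells of cluster 11, and at 67.84 and 69.59 CPM in cluster 14. Outside the Treg-like clusters, cluster 7, led by Ccl4, Ccl1 and Xcl1, stood out with 262.3 CPM of Tgfb1 and 62.69 CPM of Itgav in 112 cells, and cluster 8, led by Gpm6b, Tbc1d4, Slamf6 and Pdcd1, with 62.38 CPM of Nrp1 in 784 cells.

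**Figure D2:**
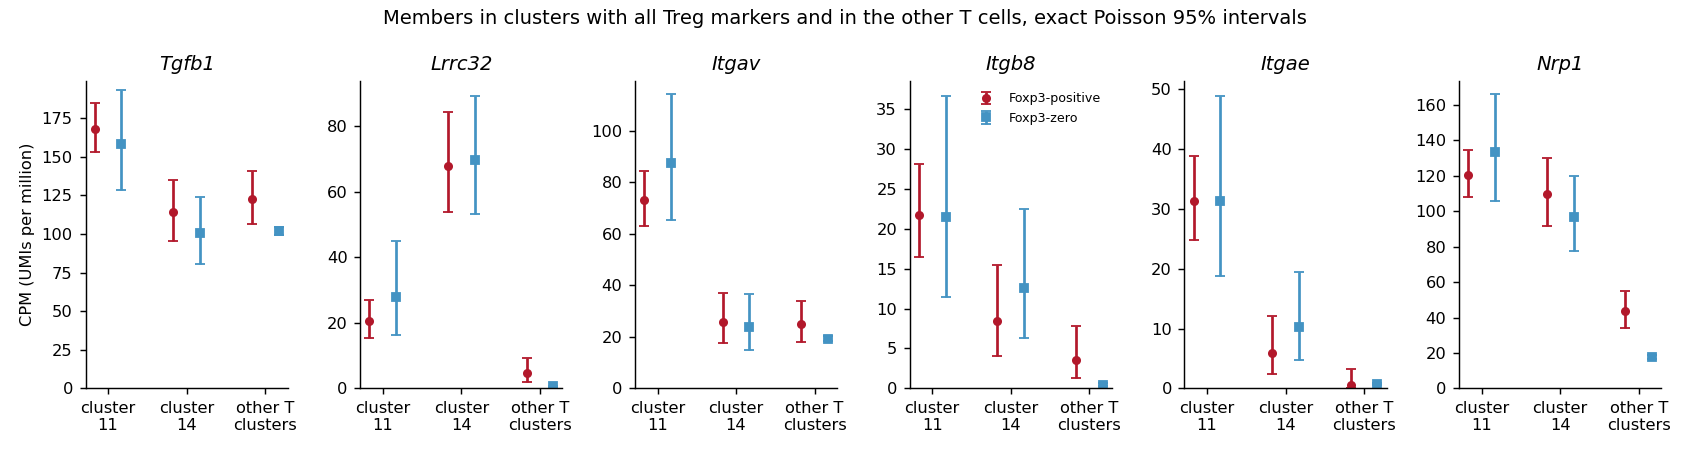
Level of each gene (vertical axis, CPM, linear) in cluster 11, cluster 14 and the other T cell clusters, in Foxp3-positive (circles) and Foxp3-zero cells (squares), with exact Poisson 95% intervals for counting error. Lrrc32 is higher in cluster 14, and Itgav, Itgae and Tgfb1 are higher in cluster 11, in both Foxp3 classes.

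Other genes of the pathway moved in both directions between the Foxp3 classes. Of 18 TGF-beta receptor and signalling genes 14 were tested, and 5 were higher in Foxp3-positive cells: Pmepa1 by 1.54 ± 0.17, Tgif1 by 1.32 ± 0.19, Ldlrad4 by 1.01 ± 0.23, the receptor Tgfbr1 by 0.76 ± 0.14 and Skil by 0.49 ± 0.13 on the log2 scale. Another 3 were lower, Tgfbr3 (-2.01 ± 0.24), Tgfbr2 (-0.74 ± 0.10) and Smad7 (-0.36 ± 0.10). The list's median was -0.02, beside -0.01 over all genes tested. Pmepa1, Ldlrad4 and Smad7 are known as negative feedback genes of the pathway. Of 11 other integrin chains 7 were tested: Itgb7, the partner of CD103, was higher by 0.47 ± 0.08 and Itga2 by 0.93 ± 0.24, and Itgal was lower (-0.52 ± 0.12), with a list median of 0.04. Of 10 other ligands and latent partners 2 were tested and 0 passed by edgeR (0 at an unadjusted p under 0.05). Of 9 other activators (proteases and thrombospondin) 2 were tested and 0 passed (Mmp9 at an unadjusted p under 0.05), and their DESeq2 calls were not compared. Of 15 partners of neuropilin 1, 2 were tested and Sema4a was lower (-2.16 ± 0.20). As a check of the class, 6 of 8 Treg genes were tested and 6 were higher, with a median of 3.49, among them Ctla4 (3.81 ± 0.11) and Ikzf2 (3.77 ± 0.08).

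Among Foxp3-positive cells, those with an Il1rl1 UMI had less Lrrc32 and more Itgae, Itgav and Nrp1 than those without. ST2 marks Treg cells that respond to interleukin 33, a population that is common in adipose tissue. The test used 4 sums, 2 classes in 2 libraries, so the fit had 1 residual degree of freedom and edgeR took most of the spread from other genes. In it 4 of 6 genes passed, 3 higher and 1 lower, beside 9.5% of all 8768 genes tested.

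Lrrc32 had 14.88 and 0 CPM in Il1rl1-positive cells of experiments 1 and 2, against 31.05 and 30.51 CPM in Il1rl1-zero cells (13 and 0 UMIs against 59 and 71). Both Il1rl1-positive values lay below both Il1rl1-zero values. In experiment 2 a floor of 3 UMIs in the Il1rl1-positive sum lay 4.03-fold below the Il1rl1-zero level. This ratio leaves out the counting error of the Il1rl1-zero sum, so it is not a lower bound. The exact Poisson intervals of these sums, 0 to 9.303 CPM and 23.83 to 38.48 CPM, did not overlap. The log2 difference was -1.70 ± 0.38 (adjusted p = 0.000211, edgeR).

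Itgae had 45.79 and 35.31 CPM in Il1rl1-positive cells of experiments 1 and 2, against 5.262 and 11.17 CPM in Il1rl1-zero cells, a log2 difference of 2.30 ± 0.37 (adjusted p = 3e-08, edgeR). Itgav had 73.27 and 85.75 CPM against 46.31 and 33.95 CPM (0.88 ± 0.22, adjusted p = 0.000976). Nrp1 had 117.9 and 143.8 CPM against 84.72 and 85.94 CPM (0.54 ± 0.17, adjusted p = 0.0175). For these 3 genes both Il1rl1-positive values lay above both Il1rl1-zero values, again a separation of only 2 values on each side.

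Tgfb1 had 187.7 and 128.6 CPM in Il1rl1-positive cells, against 137.9 and 131.5 CPM in Il1rl1-zero cells, and the log2 difference of 0.20 had an interval of -0.08 to 0.49 (adjusted p = 0.504, edgeR). Itgb8 had 14.88 and 10.09 CPM against 9.472 and 16.33 CPM, with an interval of -0.84 to 0.96 (adjusted p = 0.968). The 2 chains of alpha V beta 8 thus gave different calls in this comparison, and a test of the difference between them was not run.

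**Figure D3:**
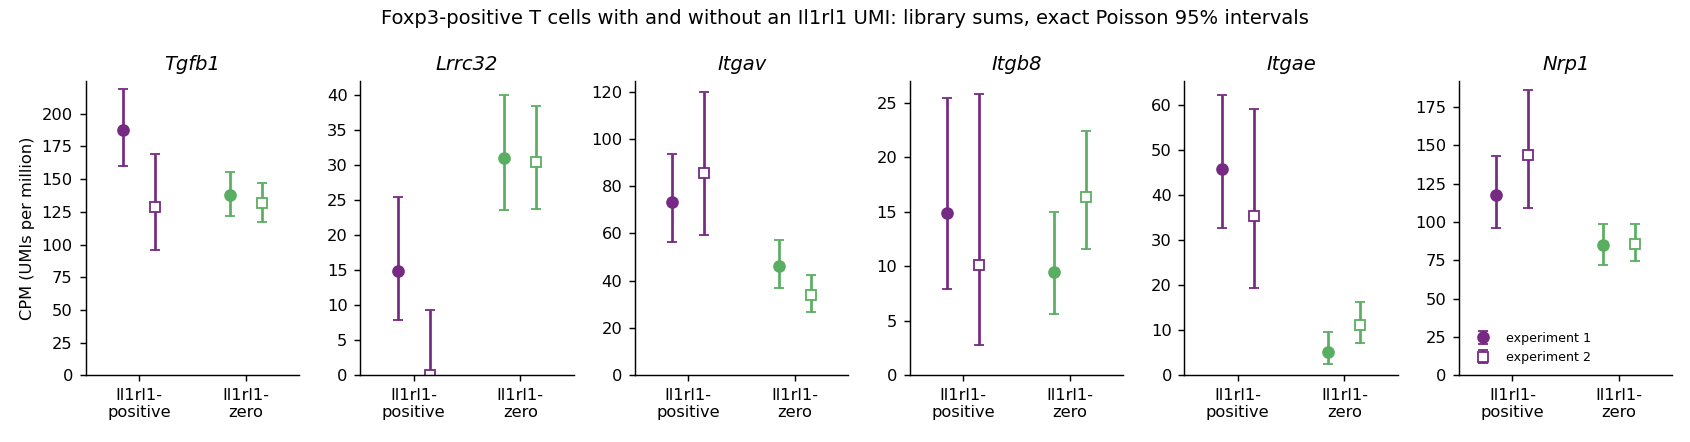
Level of each gene (vertical axis, CPM, linear) in Foxp3-positive cells with (left) and without (right) an Il1rl1 UMI, 1 point per library with exact Poisson 95% intervals for counting error. Itgae is higher and Lrrc32 lower in the Il1rl1-positive sums of both libraries.

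These calls depended on the fit. DESeq2 called Itgae alone (adjusted p = 0.0497), and scaling by library size left Lrrc32 just short of the threshold (-1.65, adjusted p = 0.0511). Without cells bearing hashtags of several samples Nrp1 did not pass (0.40, adjusted p = 0.185). With sums per library and tissue, in which only Itgav, Tgfb1 and Nrp1 could be tested, Itgav was at 0.69 (adjusted p = 0.155) and Nrp1 at 0.51 (adjusted p = 0.217). The Il1rl1-positive cells were also deeper, with medians of 7239 and 4908 UMIs against 5888 and 4406. The myeloid list summed to 200.3 and 166.4 CPM in Il1rl1-positive cells of experiments 1 and 2, against 113.1 and 128.1 CPM in Il1rl1-zero cells, with Csf1r at 0 in both Il1rl1-positive sums. The Treg markers summed to 2116 and 1634 CPM against 1390 and 1262 CPM. The part of either list in the calls was not tested.

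Tissue and the Il1rl1 split were confounded. Il1rl1-positive cells made up 36.38% ± 13.6 of Foxp3-positive cells of VAT, 19.39% ± 7.914 of SAT, 12.5% ± 3.701 of BAT and 5.781% ± 4.422 of spleen samples (mean ± SD over 4). Within VAT, with 72 Il1rl1-positive and 135 Il1rl1-zero cells, Itgae was at 49.31 against 17.05 CPM, Itgav at 104.3 against 59.66 CPM, Lrrc32 at 18.96 against 36.93 CPM and Nrp1 at 127.1 against 117.9 CPM. Within SAT, with 26 and 127 cells, Itgae was at 50.04 against 15.38 CPM, Lrrc32 at 0 against 32.05 CPM and Itgav at 68.8 against 61.54 CPM. The directions for Itgae and Lrrc32 were thus the same in both depots, in pooled sums with no test. Of these, the exact Poisson intervals were apart only for Itgae in VAT (32.21 to 72.25 against 8.808 to 29.78 CPM). They overlapped for Itgae in SAT (21.6 to 98.59 against 7.949 to 26.87 CPM). They also overlapped for Lrrc32 in VAT (9.094 to 34.88 against 24.13 to 54.11 CPM) and SAT (0 to 23.07 against 20.74 to 47.31 CPM). For Itgav no direction was clear within SAT, with intervals of 34.34 to 123.1 CPM in Il1rl1-positive and 45.37 to 81.59 CPM in Il1rl1-zero cells. Itgav UMIs were in 4 of 26 and 32 of 127 of these cells, a smaller share with Il1rl1. In the few Il1rl1-positive cells of spleen (10) and BAT (9), Itgae was at 76.1 and 90.94 CPM, against 8.505 and 0 CPM in Il1rl1-zero cells, and no Lrrc32 UMI was found, against 57.41 and 9.583 CPM. The floor of 3 UMIs was 32.62 CPM in these spleen cells and 68.21 CPM in those of BAT, which is above the BAT level.

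Other genes that differed in this split included Furin, the protease that cleaves the TGF-beta precursor (higher by 1.06 ± 0.24), 1 of 2 tested ligand-related genes, and Mmp9 (lower, adjusted p = 0.0127), 1 of 2 tested activators. Of 8 tested integrin chains Itga2 (1.02 ± 0.36), Itgb1 (0.48 ± 0.10) and Itgb7 (0.36 ± 0.11) were higher and Itga6 was lower (-0.82 ± 0.23). Of 14 receptor and signalling genes 0 were higher and Smad7 (-0.59 ± 0.17) and Smurf1 (-1.66 ± 0.53) were lower. Of 5 neuropilin partners Plxna1 was higher (2.30 ± 0.54). Among Treg genes Izumo1r (-1.37 ± 0.14) and Gpr83 (-1.92 ± 0.44) were lower with Lrrc32, and Il2ra was higher (0.96 ± 0.14). The list medians were 0.51, -0.48, 0.33, -0.04, 0.48 and 0.53 for ligands, activators, integrins, signalling, neuropilin partners and Treg genes, beside -0.01 over all genes.

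Across tissues, Foxp3-positive cells differed most clearly in Itgav, which was higher in VAT than in spleen. Tgfb1, Itgav and Nrp1 could be tested (4105 genes, 1 fit over 4 tissues with experiment as a term). In VAT over spleen 1 of these 3 passed, beside 12.5% of all genes. The myeloid list of these sums was at 109.9 to 198.7 CPM in VAT, 154.1 to 208.2 in SAT, 55.64 to 119.1 in BAT and 89.18 to 121.6 in spleen, and the Treg markers were at 1729 to 2256 CPM in VAT against 909.4 to 1430 CPM in spleen. Their part in the tissue results was not tested.

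Itgav had 102, 58.87, 69.77 and 79.95 CPM in VAT replicates 1 to 4 and 82.73, 22.01, 54.32 and 57.64 CPM in SAT. It had 46.31, 0, 37.09 and 23.17 CPM in BAT and 35.43, 24.6, 47.29 and 8.263 CPM in spleen. Every VAT value lay above every spleen value, while SAT overlapped both. The log2 difference of VAT over spleen was 1.37 ± 0.36 (adjusted p = 0.00943, edgeR), and it missed the threshold without VAT replicate 1 (1.18, adjusted p = 0.0636), spleen replicate 2 (1.24, 0.0583) or spleen replicate 4 (1.12, 0.0524). By mean the order was VAT (77.66 ± 18.39 CPM), SAT (54.18 ± 24.91), spleen (28.9 ± 16.59) and BAT (26.64 ± 20.15, SD, n = 4), and spleen and BAT differed by less than their spread.

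In SAT over spleen 0 of the 3 genes passed, beside 10.5% of all genes, with 2 at an unadjusted p under 0.05 by edgeR and 0 by DESeq2. These 2 were Tgfb1 at 0.69 ± 0.25 (adjusted p = 0.0837) and Itgav at 1.00 ± 0.39 (adjusted p = 0.111). Without spleen replicate 3 Itgav passed (1.45, adjusted p = 0.0389), and without SAT replicate 4 Tgfb1 passed (0.87, adjusted p = 0.0335). Tgfb1 had 185.4, 209.1, 212.8 and 126.1 CPM in SAT, 107.4, 206, 160.2 and 114.9 CPM in VAT, 132.3, 121.8, 92.73 and 57.92 CPM in BAT, and 64.96, 92.26, 138.5 and 119.8 CPM in spleen. The 3 highest SAT values lay above all spleen and BAT values, and SAT replicate 4 lay among them.

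In BAT over spleen 0 of 3 passed, beside 0.706% of all genes, with 0 at an unadjusted p under 0.05 by edgeR and 0 by DESeq2. In BAT over SAT (3.9% of all genes), BAT over VAT (5.48%) and SAT over VAT (0.146%) 0 of 3 passed by edgeR or DESeq2, with 2, 1 and 1 at an unadjusted p under 0.05. The 2 in BAT over SAT were Nrp1 at 0.84 ± 0.31 (adjusted p = 0.14) and Tgfb1 at -0.67 ± 0.31 (adjusted p = 0.286). Nrp1 had 125.7, 167.5, 185.5 and 115.8 CPM in BAT, 99.84, 99.04, 49.8 and 97.27 CPM in SAT, 96.67, 139.8, 126.6 and 134.9 CPM in VAT, and 64.96, 95.33, 138.5 and 169.4 CPM in spleen. All BAT values lay above all SAT values, and the spleen values spanned most of the range.

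Lrrc32, Itgb8 and Itgae were below the filter in these fits. Lrrc32 had 6.616, 30.46, 0 and 0 CPM in BAT, 34.23, 11, 40.74 and 10.81 CPM in SAT, 37.59, 22.08, 33.59 and 14.99 CPM in VAT, and 11.81, 58.43, 54.05 and 70.24 CPM in spleen. The 3 highest values of all 16 samples were from spleen, and the 4 BAT samples together held 3 UMIs. With the weaker filter the log2 differences from spleen were -2.60 ± 0.72 in BAT (adjusted p = 0.115), -1.01 ± 0.42 in SAT (0.213) and -0.85 ± 0.39 in VAT (0.264), none of which passed. Lrrc32 thus had its highest mean in spleen (48.63 ± 25.48 CPM, SD, n = 4), and Itgav in VAT.

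Itgb8 was not detected in the 73 Foxp3-positive cells of BAT, which allows a share of cells with a UMI of up to 4.11%. It had 17.12, 11, 36.22 and 14.41 CPM in SAT, 8.056, 18.4, 15.5 and 19.99 CPM in VAT, and 5.905, 12.3, 16.89 and 24.79 CPM in spleen. Every SAT, VAT and spleen sample thus had Itgb8 UMIs and no BAT sample had any. The 4 Treg markers, Foxp3 among them, summed to 853.1 to 1564 CPM in the Foxp3-positive sums of BAT, against 1607 to 2187 in SAT, 1729 to 2256 in VAT and 909.4 to 1430 in spleen, and their part in the BAT values of Itgb8 and Lrrc32 was not tested. A floor of 3 UMIs over the 4 BAT samples (8.4 CPM) lay 2.41-fold below the pooled level of SAT (20.2 CPM). It lay 1.74-fold below that of VAT (14.6 CPM) and 1.84-fold below that of spleen (15.5 CPM). These ratios leave out the counting error of the other tissue, so they are not lower bounds. The exact Poisson interval of pooled BAT was 0 to 10.33 CPM. It overlapped those of VAT (8.664 to 23.1 CPM) and spleen (8.857 to 25.16 CPM), but not that of SAT (12.17 to 31.57 CPM). With the weaker filter the adjusted p was 0.0923 against SAT, 0.143 against VAT and 0.305 against spleen, so the difference did not pass. Itgae averaged 30.81 ± 13.47 CPM in VAT, 18.46 ± 14.48 in SAT, 12.58 ± 17.49 in BAT and 13.59 ± 7.45 in spleen (SD, n = 4), with overlapping values.

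**Figure D4:**
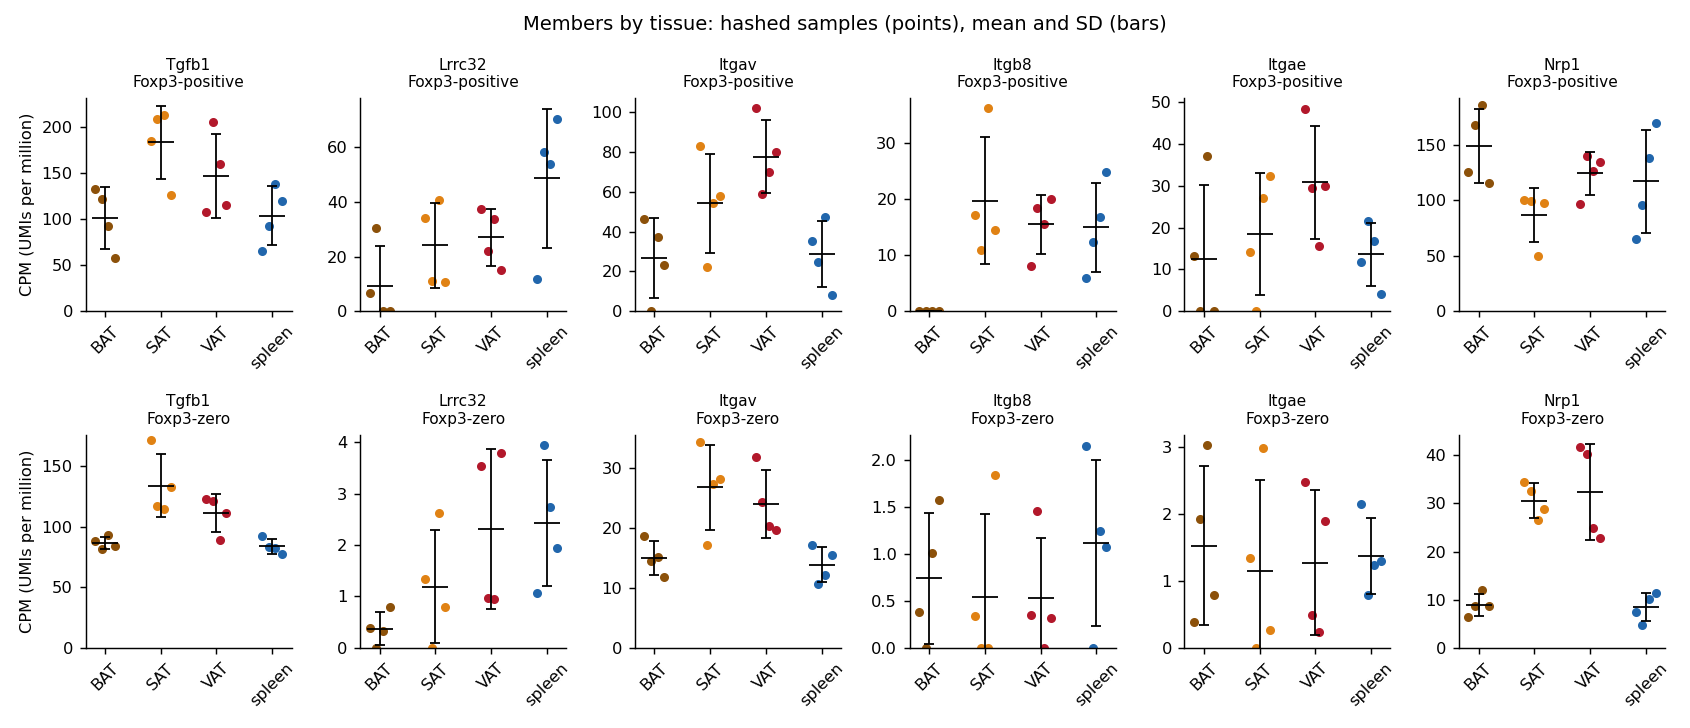
Level of each gene (vertical axis, CPM, linear, own scale per panel) in BAT, SAT, VAT and spleen, in Foxp3-positive (top) and Foxp3-zero cells (bottom); points are hashed samples and bars the mean and SD of 4. Itgav is highest in VAT among Foxp3-positive cells, and Nrp1 in SAT and VAT stands clear of BAT and spleen among Foxp3-zero cells.

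Of the other pathway genes in Foxp3-positive cells, Mmp9, a protease that can release latent TGF-beta, was higher in VAT (2.28 ± 0.56) and SAT (3.33 ± 0.51) than in spleen, and Furin in VAT (1.27 ± 0.41), each the single gene of its list that could be tested. Of 5 tested integrin chains 3 were higher in VAT than in spleen, Itgb1 (0.75 ± 0.16), Itga4 (0.74 ± 0.15) and Itgb7 (0.70 ± 0.17), 2 in SAT, Itgb7 (0.56 ± 0.18) and Itga4 (0.52 ± 0.16), and Itgb1 in BAT (0.75 ± 0.18). Of 9 signalling genes Tgif1, a SMAD co-repressor, was higher in VAT (1.55 ± 0.42) and SAT (1.66 ± 0.43). The integrin list had a median of 0.70 in VAT over spleen, beside -0.03 over all genes.

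Foxp3-zero T cells, with many more cells per sample, showed clearer tissue differences in the same 3 genes. In SAT over spleen 3 of 3 were higher, beside 39.8% of 10261 genes, and in VAT over spleen 3 of 3, beside 36.6%. In BAT over SAT 3 of 3 were lower, beside 32.3%, and in BAT over VAT 2 of 3 were lower, beside 28.8%. In BAT over spleen (8.07%) and SAT over VAT (4.39%) 0 of 3 passed by edgeR or DESeq2, with 0 and 1 at an unadjusted p under 0.05. With background shares this high, such counts say little about these genes in particular.

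Nrp1 showed the largest of these differences. It had 34.35, 32.62, 26.52 and 28.9 CPM in SAT and 41.72, 40.3, 24.82 and 22.72 CPM in VAT. It had 6.493, 8.666, 12.1 and 8.672 CPM in BAT and 7.513, 4.738, 10.21 and 11.44 CPM in spleen. All SAT and VAT values lay above all BAT and spleen values, while BAT and spleen overlapped. The log2 difference was 1.60 ± 0.21 in SAT over spleen (adjusted p = 1.41e-06, edgeR), 1.69 ± 0.21 in VAT over spleen (5.16e-07), -1.59 ± 0.23 in BAT over SAT (1.01e-05) and -1.68 ± 0.23 in BAT over VAT (5.16e-06). In cells thinned to 1300 UMIs these were 1.07, 1.19, -1.55 and -1.67, and all 4 passed.

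The 6 myeloid marker genes moved with Nrp1 here, summing to 123.2 to 199.7 CPM in SAT, 110.3 to 155.9 in VAT, 56.81 to 106.5 in BAT and 72.65 to 92.14 in spleen. Most of this was Cst3 (83.37 to 101.7 CPM in SAT and 56.86 to 82.43 in spleen) and Fcer1g (18.52 to 79.62 and 1.61 to 5.23 CPM). Csf1r, a defining myeloid gene, was at most 1.347 CPM in SAT, 0.4856 in VAT, 2.292 in BAT and 1.61 in spleen and at 0 in 8 of the 16 samples. Tyrobp, also of this list, was at 1.812 to 14.45 CPM in SAT, 3.535 to 17.67 in VAT, 0 to 2.365 in BAT and 0.5366 to 3.985 in spleen. The Treg markers moved with Nrp1 as well: in Foxp3-zero sums they came to 95.25 to 129.3 CPM in SAT, 80.79 to 122.7 in VAT, 37.43 to 53.44 in BAT and 48.83 to 83.18 in spleen. Over both libraries, 166 Nrp1 UMIs of Foxp3-zero cells were in the Treg-like clusters and 1034 in the other T cell clusters. Among those other clusters, with both Foxp3 classes together, Nrp1 was at 39.55 CPM in cluster 6 and 62.38 CPM in cluster 8. Cluster 6 held 1708 cells and was led by Cxcr6 and Cxcr3. In clusters 0, 2 and 4 Nrp1 was at 1.829, 1.515 and 2.147 CPM. The part of the marker genes and of these clusters in the Nrp1 result was not tested. Endothelial Cdh5 was at most 3.37 CPM in any sample.

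Itgav was higher in SAT (26.74 ± 7.089 CPM) and VAT (23.99 ± 5.617 CPM) than in spleen (13.89 ± 2.986 CPM), by 0.90 ± 0.17 (adjusted p = 0.000153, edgeR) and 0.69 ± 0.17 (adjusted p = 0.00246), with BAT at 15.03 ± 2.84 CPM (SD, n = 4). In cells thinned to 1300 UMIs neither passed (0.51, adjusted p = 0.186 in SAT, and 0.32, adjusted p = 0.48 in VAT). The BAT differences, -0.73 ± 0.18 from SAT (adjusted p = 0.00303) and -0.53 ± 0.18 from VAT (0.0321), missed the threshold without the weak hashtags (-0.58, adjusted p = 0.0549, and -0.46, adjusted p = 0.0801) and in thinned cells (-0.20 and -0.01). Tgfb1 was at 134.1 ± 26.24 CPM in SAT, 111.3 ± 15.55 in VAT, 86.88 ± 4.906 in BAT and 83.98 ± 6.032 in spleen. It was higher than in spleen by 0.58 ± 0.09 in SAT (adjusted p = 1.07e-05) and 0.33 ± 0.09 in VAT (0.006), and lower in BAT than in SAT (-0.50 ± 0.09, 0.000227). BAT over VAT did not pass for Tgfb1 (-0.24 ± 0.09, adjusted p = 0.0623). Thinned, Tgfb1 passed in SAT over spleen (0.68) and BAT over SAT (-0.44) but not in VAT over spleen (0.35, adjusted p = 0.0508). For Itgav, Tgfb1 and Nrp1 no difference of BAT from spleen passed the threshold in Foxp3-zero cells (intervals of -0.22 to 0.56, -0.10 to 0.28 and -0.54 to 0.56 on the log2 scale). Lrrc32, tested here only with the weaker filter, was lower in BAT than in spleen (-2.72, adjusted p = 0.0306, edgeR) and VAT (-2.54, 0.0203). Its difference from SAT did not pass (-1.70, 0.192). The Foxp3-zero cells of BAT held 3 Lrrc32 UMIs in all.

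The Foxp3 difference itself was compared between fat and spleen, as the mean of the 3 depots minus spleen. Here 1 of 3 genes passed, beside 1.02% of all genes, and 62 of the 67 genes called were lower. Nrp1 had a narrower Foxp3 difference in the mean of the 3 depots than in spleen, by -1.29 ± 0.27 on the log2 scale (adjusted p = 0.00313, edgeR). The tissue means of Foxp3-positive and Foxp3-zero cells were 86.49 and 30.6 CPM in SAT, 124.5 and 32.39 CPM in VAT, 148.6 and 8.983 CPM in BAT, and 117 and 8.474 CPM in spleen. Foxp3-zero cells thus had more Nrp1 in SAT and VAT than in spleen, while their level in BAT was close to that of spleen. By these means the Foxp3 difference in BAT was not narrower than in spleen, and the difference was not tested for each depot alone. The differences for Itgav (0.16 ± 0.39, interval -0.59 to 0.92) and Tgfb1 (0.02 ± 0.23, interval -0.43 to 0.47) did not pass.

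Most Foxp3-positive cells had UMIs of at most 1 of the 6 genes. At least 3 of the genes were found in 16.05% of these cells in experiment 1 and 10.02% in experiment 2. In the 848 Foxp3-positive cells of both libraries, 389 had a UMI of Tgfb1, 285 of Nrp1, 180 of Itgav, 99 of Lrrc32, 52 of Itgb8 and 46 of Itgae. Tgfb1 and Lrrc32, ligand and dock, were found together in 61 cells, where the product of the single shares gives 45.41. The chains Itgav and Itgb8 were together in 18 cells (11.04 from the product), Lrrc32 and Itgav in 31 (21.01), Lrrc32 and Itgb8 in 11 (6.071) and Lrrc32 and Itgae in 5 (5.37). The triple of Lrrc32, Tgfb1 and Itgb8 was seen in 8 cells (2.785 from the product).

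Of 15 pairs 14 lay above the product in Foxp3-positive cells, with a median ratio of 1.343, and 14 of 15 in Foxp3-zero cells, with a median ratio of 1.867. Co-detection rises with the depth of a cell. Multiplets, cells with several hashtags, were 39 and 68 of the Foxp3-positive cells of experiments 1 and 2, and their part in these counts was not tested. In cells thinned to 1300 UMIs, 10 of 15 pairs lay above the product in Foxp3-positive cells and 8 of 15 in Foxp3-zero cells. Tgfb1 with Lrrc32 was then in 7 cells (3.833 from the product) of 828 and Itgav with Nrp1 in 3 (5.435). Counts this small show no more than that the genes can be found in the same cell.

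The pairs were also counted in the Il1rl1 classes, with no test of a difference. In 155 Il1rl1-positive cells Itgav and Itgae were together in 11 (7.716 from the product), and Lrrc32 was in 9 cells, 3 of them with Itgav (3.019). In 693 Il1rl1-zero cells Lrrc32 and Itgav were together in 28 (16.62 from the product), Lrrc32 and Tgfb1 in 54 (39.35), and Itgav and Itgae in 3 (4.248). At least 2 of the 6 genes were found in 43.27% and 32.06% of Foxp3-positive cells of experiments 1 and 2, against 12.95% and 6.816% of Foxp3-zero cells. Thinned, these were 5.731% and 7.098% against 0.8585% and 1.12%. By tissue they were 16.44% of Foxp3-positive cells in BAT (12 of 73, exact interval 8.793 to 26.95), 42.48% of those in SAT, 43.48% in VAT and 38.3% in spleen. They were 4.11%, 5.921%, 10.19% and 6.915% when thinned. Itgav and Itgb8 were found together in 6 cells of SAT, 7 of VAT and 0 of BAT and spleen.

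**Figure D5:**
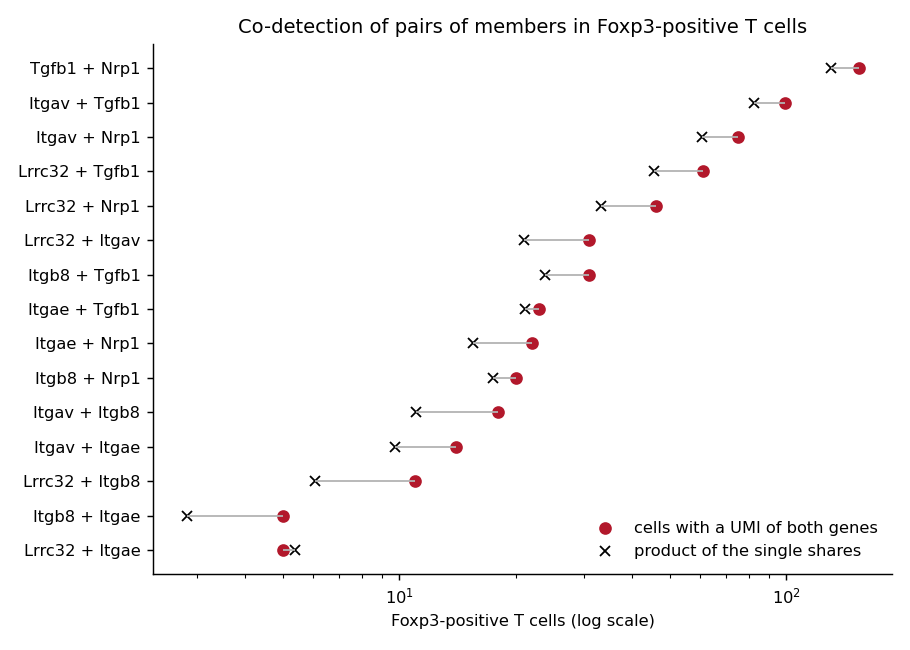
Number of Foxp3-positive T cells (horizontal axis, log scale) with a UMI of both genes of a pair (circles) and the number that the product of the single shares gives (crosses), over 848 cells of both libraries at full depth. Of 15 pairs 14 lie above the product, Lrrc32 with Itgae being the exception.

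Over the 8 combinations of tissue and Foxp3 class, the genes whose mean log2(CPM + 1) was most like each gene were named as a description, among 6588 genes. They were Mvb12a (r = 0.97) and Mknk2 (0.966) for Tgfb1, Cd81 (0.962) and Resf1 (0.954) for Lrrc32, Sytl1 (0.993) and Nfkbia (0.987) for Itgav, Cd81 (0.98) and Rarg (0.969) for Itgb8, Nfyb (0.972) and Vmp1 (0.968) for Itgae, and Pear1 (0.979) and Dapp1 (0.968) for Nrp1. The 8 points share libraries and classes, and with so few points and so many genes values of this size are easily reached. The tetraspanin gene Cd81 was named for both Lrrc32 and Itgb8.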

How the data were processed

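The 2 sparse matrices, 1 per droplet library, were used as deposited, in raw UMI counts per cell barcode; the authors name Cell Ranger, bcl2fastq and Seurat and the build mm10 in the submitters' processing notes, with settings not given in the sources used here. Cells had at least 500 genes, 1000 UMIs and under 10% mitochondrial counts (3985 of 4485 and 9004 of 12239 barcodes). Hashtag counts were called with a mixture model at a posterior above 0.95: 3279 and 5940 cells had a single sample, 294 and 1205 were multiplets, and 412 and 1828 were unresolved, with 0 and 31 negative. T cells without a single sample entered no value by hashed sample or tissue. They did enter the library sums, the shares of cells per library, the co-detection counts over libraries and the cluster values. No doublet caller was run beside the hashtags. Leiden clusters (scanpy 1.11.5, resolution 1.0, 2000 variable genes, 30 components, 15 neighbours) served to leave out 255 and 685 cells of other types, leaving 3730 and 8319 T cells. These include cluster 19, with 8 and 1463 cells in experiments 1 and 2 and a median of 1539 UMIs. Cd3e was in 48.47% of its cells, Trac in 72.74% and Foxp3 in 4.963%. It shared leading genes such as Gm12940 and Abhd2 with the left-out erythroid cluster, and its part in the results was not tested.

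Counts were summed per hashed sample and class (at least 10 Foxp3-positive cells) or per library, and tested with edgeR 4.0.16 (R 4.3.3): TMM, filterByExpr with a minimum count of 10, quasi-likelihood test, Benjamini-Hochberg over all genes tested, threshold 0.05. Foxp3, and Il1rl1 in its own split, were left out of the tests. Shares have exact Clopper-Pearson 95% intervals, and 0 UMIs have a limit of 3 counts. Named genes were the 6 genes, the called genes of 6 pathway lists (at most 6 per list and comparison) and the 2 most similar genes of each. The genes and lists were chosen with earlier results of these data known. Simulated data had a fixed spread for all genes, and recovery was counted only among changed genes that passed the filter. In the Foxp3 fit (6628 genes) these were 29 for 2-fold increases, and 100% of 2-fold changes were recovered. The VAT over spleen fit of Foxp3-positive cells (4123 genes) recovered 50% of 2-fold and 97.9% of 4-fold increases, but 20.8% and 91.2% of such decreases. The Il1rl1 fit (8763 genes) recovered 18% and 96% of increases, but 8% and 61.7% of decreases. Alternatives were DESeq2 1.42.0, library-size scaling, a weaker filter (10 UMIs over all sums), cells thinned to 1300 UMIs, stricter hashtag calls, other sums and blocks, and leaving out each hashed sample; the fits without the 2 weak hashtags were chosen after seeing the data.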

Additional observations from a re-analysis of the deposited data

Results flagged for a closer look

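Nrp1 in the Foxp3-positive cells of SAT replicate 3 stood apart, at 49.8 CPM against 97.27 to 99.84 CPM in the other 3 SAT samples. It was 1 of 47 groups of 4 samples checked for a sample far from the others, and chance marks about 1 group in 20. The Foxp3 difference of Nrp1 differed between the mean of the 3 fat depots and spleen by -1.29 on the log2 scale in the interaction test (adjusted p = 0.00313, edgeR), and by -1.31 to -1.27 in 4 alternatives. By tissue means BAT did not show it: Nrp1 was at 148.6 and 8.983 CPM in its Foxp3-positive and Foxp3-zero cells, against 117 and 8.474 CPM in those of spleen, and BAT alone was not tested.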

How the results depend on the processing

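The count of the 6 genes called in the Foxp3 comparison was 2. It was 5 with the weaker filter, 6 with sums per library and 3 without the replicate block or with scaling by library size. Thinned to 1300 UMIs it was 0, where Tgfb1 alone could be tested. Tgfb1 was also called in some fits that left out 1 sample. In the Il1rl1 split it was 4, and 1 by DESeq2, 0 thinned, 0 with the replicate block on sums per hashed sample and 0 with sums per library and tissue, in which Lrrc32, Itgb8 and Itgae could not be tested. The deviations of same-numbered hashed samples had correlations of -0.175 to 0.115 between tissues. With 2 samples per tissue and experiment this cannot tell whether equal numbers mark 1 animal. With that number as replicate block SAT over spleen in Foxp3-positive cells had 1 call (Tgfb1) against 0, as with at least 20 cells (Itgav). No other count of calls changed. Leaving out 1 sample gave 0 to 1 there, 0 to 1 for VAT over spleen (1 with all samples), and in Foxp3-zero cells 0 to 1 for BAT over spleen, 0 to 1 for SAT over VAT and 1 to 4 for BAT over VAT (0, 0 and 2 with all samples). The added call in BAT over spleen was Lrrc32, which then passed the filter, as with the weaker filter (1 call); it was seen without BAT 4, SAT 2, SAT 3, VAT 2 or spleen 1. Thinned cells gave 0 calls for VAT over spleen in Foxp3-positive cells, 1 in Foxp3-zero cells, 1 for BAT over VAT and 0 in the interaction; BAT over VAT also had 1 by DESeq2 and 1 without the weak hashtags. The cause was not tested, except that sparser sums test fewer genes. No result changed sign past the threshold.

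Counts over all genes moved as well. Foxp3-positive over Foxp3-zero had 1288 called genes, against 2472 (weaker filter), 418 (thinned) and 2369 (library sums). Il1rl1-positive over Il1rl1-zero had 833 called genes, against 181 (DESeq2), 242 (thinned), 149 (replicate block) and 184 (library and tissue sums). BAT over spleen, Foxp3-positive had 29 called genes, against 14 (thinned), 14 (stricter hashtags) and 18 to 19 (1 sample left out). SAT over spleen, Foxp3-positive had 432 called genes, against 167 (thinned) and 213 (stricter hashtags). VAT over spleen, Foxp3-positive had 512 called genes, against 203 (thinned). BAT over SAT, Foxp3-positive had 160 called genes, against 70 (thinned), 20 (stricter hashtags), 66 (at least 20 cells), 62 (without weak hashtags) and 47 to 106 (1 sample left out). BAT over VAT, Foxp3-positive had 225 called genes, against 90 (thinned), 84 (stricter hashtags), 103 (at least 20 cells), 141 (without weak hashtags) and 85 to 149 (1 sample left out). SAT over VAT, Foxp3-positive had 6 called genes, against 18 (weaker filter), 2 (stricter hashtags), 2 (without weak hashtags) and 2 to 14 (1 sample left out). BAT over spleen, Foxp3-zero had 828 called genes, against 224 (thinned) and 308 (stricter hashtags). SAT over spleen, Foxp3-zero had 4084 called genes, against 1588 (thinned). VAT over spleen, Foxp3-zero had 3756 called genes, against 1366 (thinned). BAT over SAT, Foxp3-zero had 3317 called genes, against 1282 (thinned) and 1713 (stricter hashtags). BAT over VAT, Foxp3-zero had 2956 called genes, against 1024 (thinned). SAT over VAT, Foxp3-zero had 450 called genes, against 299 (DESeq2), 134 (thinned), 229 (stricter hashtags), 201 (without weak hashtags) and 191 to 262 (1 sample left out). Foxp3 difference, fat minus spleen had 67 called genes, against 109 (weaker filter) and 14 (thinned).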
